A study of Saccharomyces cerevisiae with 6 samples.

Results

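The Thp1 clusters that had no DNA in common with any Sac3 cluster were examined. In ChIP-chip, an antibody to the FLAG tag pulls down a protein with the DNA it is bound to, and that DNA is hybridized to a tiling array. A binding cluster is a range of the chromosome in which the array showed enrichment. Of the 2485 Thp1-FLAG clusters in the genome, 533 shared 0 bp with every Sac3-FLAG cluster, which is 21.4% of the list. Of these, 208 lay on chromosome IV and 325 on the other chromosomes, and both sets are described apart throughout. The members were selected from the Thp1 and Sac3 lists themselves, so their number and their separation from Sac3 are a description. They are called Thp1-only clusters below, and the 1952 Thp1 clusters with at least 1 bp in common with Sac3 are called shared. The name refers to the lists. A region without a Sac3 cluster is one in which the Sac3 enrichment did not pass the limits used to call clusters, and the enrichment itself was not analysed here.

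Thp1 and Sac3 belong to THSC/TREX-2, a complex at the nuclear pore that couples transcription to mRNA export. Sac3 is its scaffold, and Thp1 binds to the N-terminal part of Sac3 together with Sem1 to form a module that contacts nucleic acids. Rrm3 is a DNA helicase of the Pif1 family that helps replication forks to pass protein-bound or transcribed DNA, and its accumulation on chromatin is used to locate obstacles to replication. Because Thp1 and Sac3 are parts of the same complex, places that were called for Thp1 and not for Sac3 are of interest.

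All cultures were asynchronous MATa cells grown in YPD at 30°C, and all strains carried the same mutant alleles of LEU2, ADE2, HIS3 and CAN1. The labels list trp1-1 for each strain as well, whereas the strain list of the study does not give it for the parent of the Rrm3 strain. The Thp1 strain carried THP1::FLAG::KanMX and the Sac3 strain SAC3::FLAG::KanMX, both with ura3-1 and no deletion of a TREX-2 gene in their genotype. The Rrm3 strain, S3RBb-5B, carried Rrm3::FLAG, ura3::URA3/GPD-Tk(7x), bar1Δ and sac3::KanMX, so that Rrm3 was measured in cells without Sac3. The Thp1 and Sac3 lists come from 1 array experiment each, and the Rrm3 list was taken to combine 2 repetitions. The enrichment and its P-value at each probe were not analysed here, and the lists give no spread between replicates. For this reason no difference was tested, and the 95% intervals (Wilson for shares, order statistics for medians) cover counting error only, with neighboring clusters treated as independent. The lists name no genome build, so no gene was assigned to any cluster and no DNA sequence is shown. Positions are given as in the lists, counted from 1.

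Thp1-only clusters were found on all 16 chromosomes, but their share differed widely between chromosome IV and the rest. On chromosome IV they made up 43.7% of the 476 Thp1 clusters (interval 39.3 to 48.2%), against 16.2% of the 2009 clusters of the other chromosomes. Among those 15 chromosomes the share ran from 10.3% on chromosome III, with 8 of 78 clusters, to 21.5% on chromosome XI, with 26 of 121, with a median of 16.5%. The upper limit of the interval of chromosome XI was 29.6%. These shares come from the lists that define the members, so the higher share of chromosome IV is a description without a test. In terms of density, chromosome IV held 136 Thp1-only clusters per Mb, whereas the other chromosomes held between 18.5 per Mb on chromosome VI and 47.8 per Mb on chromosome I. Shared Thp1 clusters did not show this excess. They numbered 175 per Mb on chromosome IV, inside the range of the other chromosomes, which went from 133 per Mb on chromosome X to 226 on chromosome I.

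The reverse set behaved in the opposite way. Sac3 clusters with 0 bp in common with Thp1 numbered 5 on chromosome IV, 1.76% of its 284 Sac3 clusters, and 352 on the other chromosomes, 17.6% of 1998. On the chromosomes other than IV both one-sided sets were therefore of similar size, 325 for Thp1 and 352 for Sac3, while on chromosome IV there were 208 against 5.

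**Figure D1:**
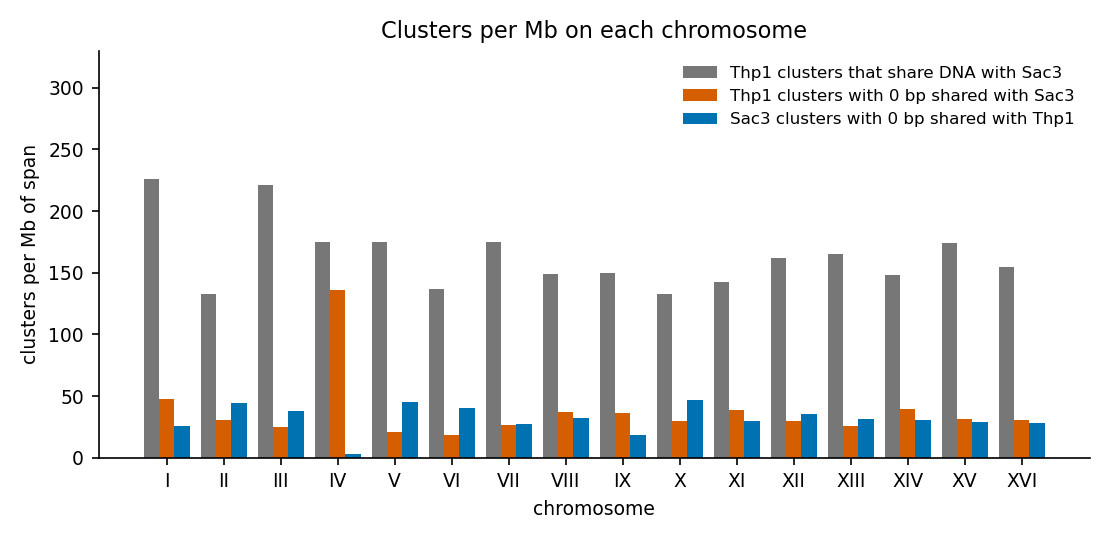
Clusters per Mb of span (vertical axis) on each of the 16 chromosomes (horizontal axis) for shared Thp1 clusters (gray), Thp1-only clusters (orange) and Sac3 clusters without Thp1 (blue). On chromosome IV the orange bar reaches 136 per Mb and the blue bar 3.26 per Mb, while elsewhere the orange bars stay between 18.5 and 47.8 per Mb; there is 1 list per protein and thus no error bar.

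Thp1-only clusters were short. Off chromosome IV their median length was 158 bp (interval 146 to 165 bp, n = 325), with the central part of the distribution between 126 and 216 bp, the lower and upper quartiles. On chromosome IV the median was 186.5 bp (172 to 200 bp, n = 208) and the quartiles were 136.75 and 247.25 bp. All 533 lay between 101 and 1102 bp, where 100 bp is the shortest run that was called. Shared Thp1 clusters were longer in both sets, with a median of 290 bp off chromosome IV and 377.5 bp on it. A longer cluster touches a Sac3 cluster more easily, so that the selection itself favors short ones and this difference is a description. Of the Thp1-only clusters, 31 on chromosome IV (14.9%) and 37 elsewhere (11.4%) reached 300 bp, the stated resolution of the array, against 61.9% and 47.7% of the shared ones. As a result, the 533 clusters held 8.12% of all bases in Thp1 clusters, 19.8% on chromosome IV and 5.67% on the others. Sac3 clusters without Thp1 had nearly the same median length off chromosome IV, 162 bp (153 to 171 bp).

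Both kinds of Thp1 cluster had a longer median on chromosome IV than on the other chromosomes pooled, and the intervals did not meet for either kind. Over all Thp1 clusters the medians were close, 270 bp on chromosome IV (248 to 284 bp) and 264 bp elsewhere (254 to 273 bp). By single chromosome, the median of Thp1-only clusters ran from 136.5 bp on chromosome XV to 230 bp on chromosome III, and chromosome IV lay inside that range. Over all Sac3 clusters the median was 257.5 bp on chromosome IV (237 to 289 bp) and 280 bp elsewhere (269 to 291 bp).

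The longest Thp1-only cluster measured 1102 bp and lay on chromosome IV from 568948 to 570049, 4217 bp from the nearest Sac3 cluster. It was followed on chromosome IV by clusters of 825 bp (1079954 to 1080778), 783 bp (464902 to 465684), 735 bp (1459781 to 1460515) and 611 bp (755483 to 756093). On the other chromosomes the longest measured 975 bp, on chromosome III from 150193 to 151167 and 7852 bp from Sac3. Next came 795 bp on chromosome XI (647335 to 648129), 676 bp on chromosome XIV (309205 to 309880), 653 bp on the same chromosome (769877 to 770529) and 627 bp on chromosome VII (3220 to 3846). Of these 5, the clusters at 647335, at 769877 and at 3220 lay within 20 kb of a chromosome end.

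Few Thp1-only clusters lay at the edge of a Sac3 cluster, which is partly given by the selection and the calling. A Thp1 range up to 250 bp from a shared Thp1 cluster was joined to it, and most of the nearest Sac3 clusters touched such a cluster. The median distance to the nearest Sac3 cluster was 1874 bp on chromosome IV (1516 to 2254 bp) and 1549 bp on the others (1362 to 1795 bp), so both intervals overlapped. On chromosome IV the smallest distance was 287 bp, and 20 clusters lay at 251 to 500 bp, 43 at 501 to 1000 bp, 44 at 1001 to 2000 bp, 61 at 2001 to 5000 bp, 31 at 5001 to 10000 bp and 9 farther away. On the other chromosomes 5 of 325 lay within 250 bp, the largest gap that was bridged inside 1 cluster, and 9 lay beyond 10000 bp. The nearest Sac3 cluster was of ordinary size, with a median of 259 bp on chromosome IV and 271 bp elsewhere. In 202 of 208 cases on chromosome IV and 279 of 325 elsewhere it was itself in contact with a Thp1 cluster (97.1 and 85.8%), near the 98.2 and 82.4% of all Sac3 clusters that were.

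**Figure D2:**
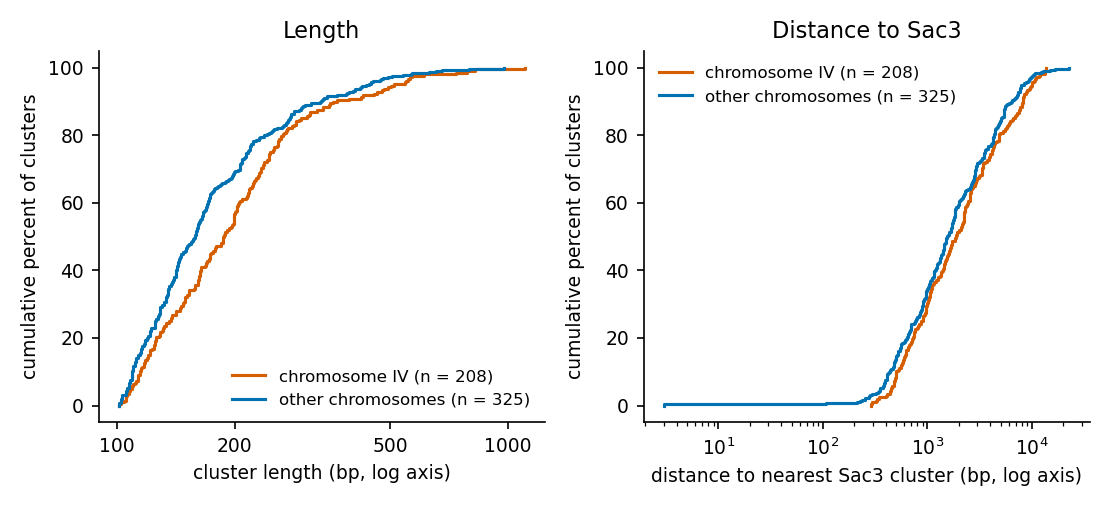
Cumulative percent (vertical axes) of Thp1-only clusters by length (left, bp) and by distance to the nearest Sac3 cluster (right, bp), both on log axes, for chromosome IV (orange, n = 208) and the other chromosomes (blue, n = 325). The length curve of chromosome IV lies to the right through most of its course (medians 186.5 and 158 bp), and on the right panel it lies below that of the other chromosomes up to 10000 bp at the distances counted, with 51.4 against 59.7% of clusters within 2000 bp of Sac3 and 80.8 against 84.3% within 5000 bp.

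Around the limit set by the rule the values were as follows. The nearest Thp1-only clusters off chromosome IV lay 3 bp from Sac3 on chromosome XV (515831 to 515969), 107 bp on chromosome XIV (771837 to 772078) and 212 bp on chromosome XVI (453294 to 453859). Just outside the rule, the Thp1 clusters with the smallest contact shared 20 bp on chromosome XV (411692 to 411912), 25 bp on chromosome XIV (220825 to 220975) and 33 bp on chromosome VII (5224 to 5424). On chromosome IV the nearest clusters inside the limit were 287, 297 and 320 bp away and the smallest contacts outside it were 45, 63 and 101 bp. The empty zone between these values is partly given by the calling, since Thp1 ranges up to 250 bp apart were joined. At the other extreme, the most remote Thp1-only clusters lay 22847 bp from Sac3 on chromosome XIV (173855 to 173963), 16742 bp on chromosome XIII (406922 to 407064) and 14864 bp on chromosome XII (320133 to 320260). The most remote on chromosome IV lay at 13561 bp (962061 to 962189), 13550 bp (1508611 to 1508731) and 13468 bp (1005917 to 1006190).

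Every Thp1-only cluster lay between 2 Sac3 clusters and none beyond the outermost one of a chromosome. On chromosome IV 107 of the 283 stretches between neighboring Sac3 clusters held a Thp1-only cluster (37.8%), against 266 of 1983 (13.4%) elsewhere, although the stretches themselves had similar median lengths, 2757 and 2664 bp. Among stretches of 10 kb or more, 35 of 38 held one on chromosome IV and 99 of 262 on the other chromosomes. Relative to the DNA in the stretches, Thp1-only clusters on chromosome IV were evenly spread over stretches of 2 kb or more. They numbered 155 per Mb in stretches of 2 to 5 kb, 160 per Mb in those of 5 to 10 kb and 162 per Mb in longer ones, and only those under 2 kb held fewer, 47.6 per Mb with 5 clusters. On the other chromosomes the corresponding values were 50.3, 35.1 and 31.3 per Mb, and 16.7 per Mb under 2 kb. The low values under 2 kb are partly given by the calling. Thp1 ranges up to 250 bp from a shared cluster were joined to it, which leaves less room in short stretches.

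On chromosome IV many Thp1-only clusters followed each other in runs. There, 155 of the 208 (74.5%) belonged to runs of at least 2 that were not interrupted by a shared Thp1 cluster. The closest other Thp1 cluster was also Thp1-only in 103 cases (49.5%). Off chromosome IV, 116 of 325 (35.7%) were in such runs and the closest neighbor was Thp1-only in 77 cases (23.7%). Of all Thp1 clusters, 43.7% on chromosome IV and 16.2% elsewhere were Thp1-only. Where a larger share of clusters is Thp1-only, more runs are formed by that share alone. Of the 15 runs with 4 or more clusters, 12 were on chromosome IV. The longest held 8 clusters of 147 to 461 bp between 994266 and 1013672, a stretch of 19407 bp without any Sac3 cluster. The next held 7 clusters between 1025630 and 1046678, and 2 further runs of 5 lay near them, at 954308 to 970093 and at 1048646 to 1056382. All 25 clusters of these 4 runs overlapped an Rrm3 cluster, beside 93.75% of all Thp1-only clusters on chromosome IV. Elsewhere the longest runs had 5 clusters, on chromosome XIV from 309205 to 331209 and on chromosome XV from 978813 to 989921. Each of these 10 clusters also overlapped Rrm3, beside 93.8% of all Thp1-only clusters off chromosome IV.

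When chromosome IV was divided into 10 equal segments, Thp1-only clusters were present in each of them, from 13 in the eighth and in the ninth to 31 in the seventh, which contains the 4 neighboring runs. In the seventh 63.3% of Thp1 clusters were Thp1-only, and in the ninth 31.7%. In full windows of 100 kb the number ran from 7 to 22, with a median of 13. On the other chromosomes pooled the segments held between 23 and 40 Thp1-only clusters and between 11.9% and 19.7% of Thp1 clusters were Thp1-only. Within 20 kb of a chromosome end lay 33 of the 325 Thp1-only clusters (10.2%, interval 7.32 to 13.9%), at 18 different ends, beside 123 of 1684 shared clusters (7.30%, interval 6.16 to 8.65%). On chromosome IV it was 2 of 208, both at the same end, beside 13 of 268.

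**Figure D3:**
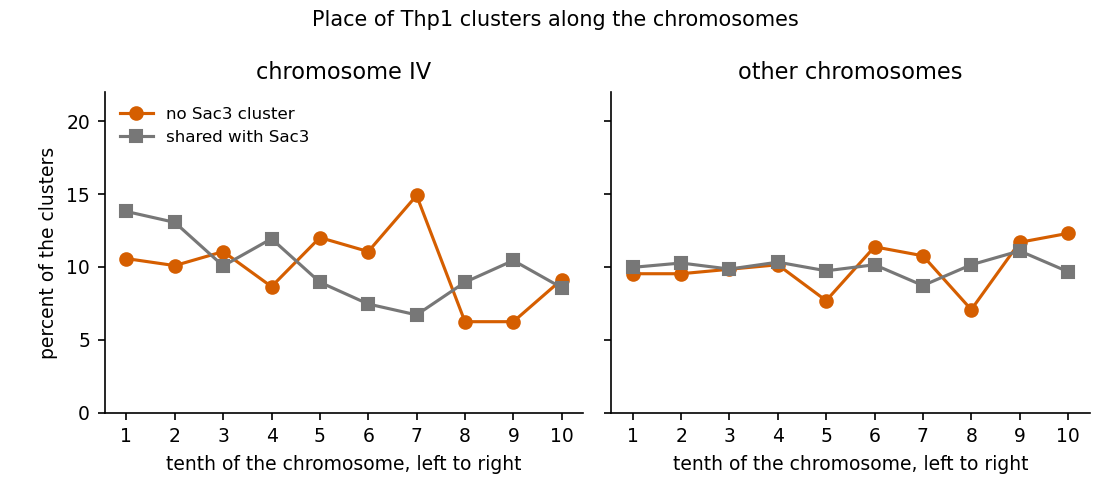
Percent of the clusters (vertical axis) found in each of 10 equal segments of the chromosome, left to right (horizontal axis), for Thp1-only clusters (orange circles) and shared Thp1 clusters (gray squares). On chromosome IV the Thp1-only clusters are most frequent in the seventh segment (14.9%), where shared clusters are least frequent (6.72%); on the other chromosomes the Thp1-only clusters lie between 7.08% (eighth segment) and 12.3% (the last) and the shared ones between 8.73 and 11.1%, with their lowest and highest values in different segments.

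Rrm3 occupancy in sac3Δ cells was not used to select the clusters. Of the Thp1-only clusters on chromosome IV, 195 of 208 overlapped an Rrm3 cluster by at least 1 bp (93.75%, interval 89.6 to 96.3%), and so did 305 of 325 on the other chromosomes (93.8%, interval 90.7 to 96.0%). Over all Thp1 clusters the share was 97.3% on chromosome IV, 98.8% elsewhere and 98.5% in the whole list. Shared Thp1 clusters overlapped Rrm3 in 268 of 268 cases on chromosome IV (interval 98.6 to 100%) and in 1679 of 1684 elsewhere (99.7%, interval 99.3 to 99.9%). In terms of bases, Rrm3 covered 91.7% of the DNA in Thp1-only clusters on chromosome IV and 85.1% on the others, whereas it covered 34.7% and 36.6% of all DNA outside Sac3 clusters. Most Thp1-only clusters were thus called for Rrm3 in sac3Δ cells, at well above the average of Sac3-free DNA and below the level of shared clusters.

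The overlap was usually complete. On chromosome IV 177 Thp1-only clusters (85.1%, interval 79.6 to 89.3%) lay wholly inside Rrm3 clusters, against 87.2% of all Thp1 clusters there, and 18 were partly covered. In the whole list 92.0% lay wholly inside. On the other chromosomes 275 (84.6%, interval 80.3 to 88.1%) lay wholly inside, against 93.2% of all Thp1 clusters, and 30 were partly covered. Of the 533, 1 Thp1-only cluster on chromosome IV touched 2 Rrm3 clusters.

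Rrm3 coverage fell steeply within 500 bp of the centers and was higher again at 1000 bp. At the centers of Thp1-only clusters Rrm3 covered 92.8% of positions on chromosome IV and 91.4% on the others. At 500 bp to either side the values were 34.1% on both sides on chromosome IV, and 35.7 and 38.2% elsewhere. These are close to the average of Sac3-free DNA. At 1000 bp the values were 41.8 and 42.8% on chromosome IV, and 40.3 and 47.7% elsewhere, above that average. Around shared clusters the values at 500 bp were 48.9 and 45.5% on chromosome IV, and 58.4 and 53.2% on the others. Shared clusters are longer, and at that distance Thp1 itself still covered 19.4 and 18.3% on chromosome IV and 13.8% elsewhere. This contrast in Rrm3 was not adjusted for length. The narrow Thp1 peak itself fell to between 4.92 and 7.21% at 500 bp from Thp1-only centers. Both dips, of Thp1 and of Rrm3, are partly given by the calling. Gaps up to 250 bp between ranges of 1 list were joined.

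**Figure D4:**
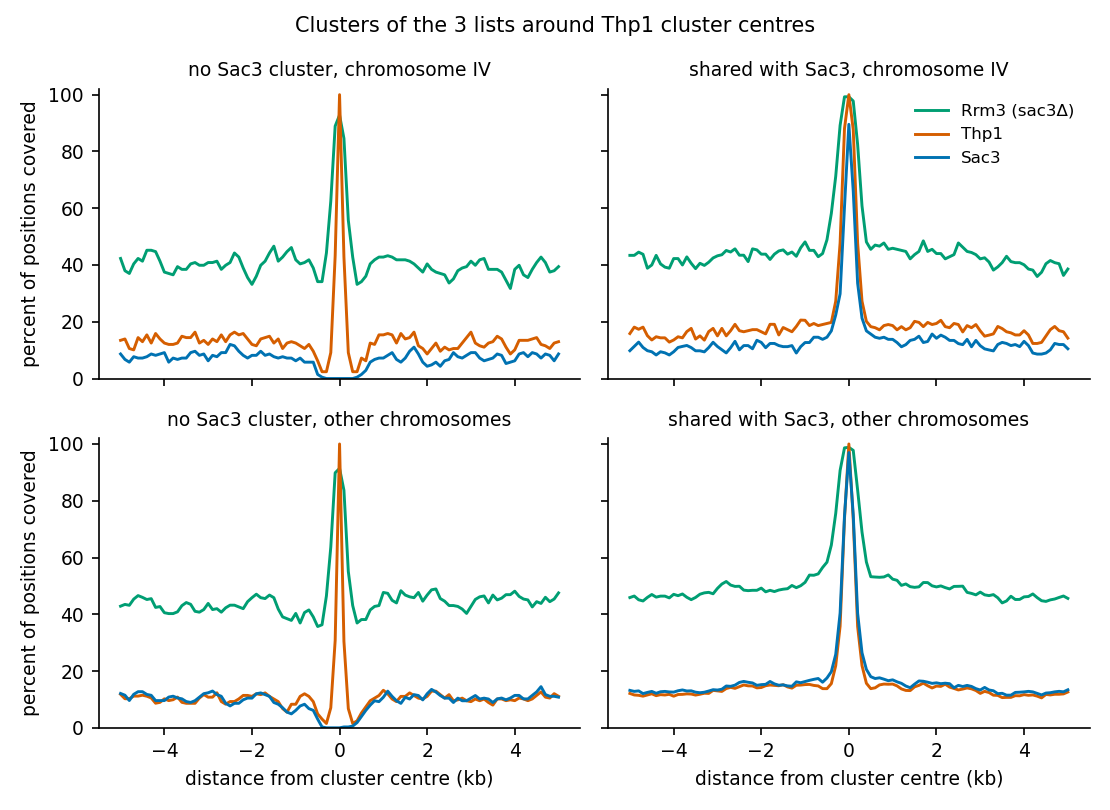
Percent of positions covered by a cluster (vertical axes) against the distance from the center of Thp1-only clusters (left) or shared Thp1 clusters (right), in kb, on chromosome IV (top) and the other chromosomes (bottom), for Rrm3 in sac3Δ cells (green), Thp1 (orange) and Sac3 (blue). At Thp1-only centers Sac3 is at 0 by selection and Rrm3 reaches 92.8 and 91.4%. Rrm3 falls to between 34.1 and 38.2% at 500 bp and is higher again at 1000 bp, between 40.3 and 47.7%.

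Most Rrm3 clusters over Thp1-only sites touched no Sac3 or shared site, which is partly given by the selection of sites apart from Sac3. The 195 overlapped clusters on chromosome IV lay on 178 different Rrm3 clusters, of which 151 (84.8%, interval 78.8 to 89.4%) touched neither a Sac3 cluster nor a shared Thp1 cluster. Elsewhere, 231 of 290 (79.7%, interval 74.6 to 83.9%) touched neither. These shares were not set against the share over all Rrm3 clusters, most of which touch no Sac3 cluster in any case. They are therefore a description. On chromosome IV there were 915 Rrm3 clusters beside 284 Sac3 clusters, and elsewhere 6187 beside 1998. Few Sac3 clusters touched 2 or more Rrm3 clusters. With each Rrm3 cluster counted once, the 178 and 290 had median lengths of 710.5 bp (560 to 778 bp) and 764 bp (658 to 858 bp). All Rrm3 clusters of the list had medians of 464 and 455 bp, but a longer cluster is also hit more easily. Counted once for each Thp1-only cluster, the median was 751 bp on chromosome IV (665 to 864 bp, n = 195) and 792 bp elsewhere (705 to 903 bp, n = 305), and the Rrm3 cluster was longer than the Thp1-only cluster in 190 and 293 cases. Counted in the same way over shared Thp1 clusters, the medians were 1008.5 and 1307 bp. The place of Thp1-only clusters inside their Rrm3 cluster is given without a comparison, and distances under 300 bp are below the stated resolution of the array. The median distance between both centers was 127 bp on chromosome IV (85.5 to 182.5 bp, n = 194, without the cluster that touched 2) and 154.5 bp elsewhere (117.5 to 191 bp, n = 305). For the 177 and 275 that lay wholly inside, the median extent of the Rrm3 cluster was 80 and 100 bp beyond the nearer edge and 456 and 534 bp beyond the farther one.

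Because Thp1-only clusters were short, Rrm3 overlap was also compared within classes of length. Off chromosome IV the share of Thp1-only clusters with an Rrm3 cluster was 98.0% at 100 to 149 bp (146 of 149), 96.1% at 150 to 199 bp (73 of 76), 90.5% at 200 to 299 bp (57 of 63), 82.1% at 300 to 499 bp (23 of 28) and 66.7% at 500 bp or more (6 of 9). Among shared clusters it was between 98.6% and 100% in each class. The shortest Thp1-only clusters were thus close to shared clusters of the same length, and the difference grew with length. It was larger still for clusters wholly inside Rrm3, which fell from 94.6% of Thp1-only clusters in the shortest class to 57.1% at 300 to 499 bp (interval 39.1 to 73.5%), where 96.1% of shared clusters were inside (interval 93.5 to 97.7%). A longer cluster is less easily contained in an Rrm3 cluster, which bears on both sets.

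On chromosome IV this order was not seen for overlap by at least 1 bp, with 63 of 67, 46 of 51, 56 of 59, 18 of 19 and 12 of 12 from the shortest to the longest class. The share wholly inside was lowest in the longest class there too, with 91.0, 80.4, 88.1, 78.9 and 66.7% of Thp1-only clusters beside 100, 100, 95.7, 88.2 and 80.6% of shared clusters. Thp1-only clusters were below shared ones in each class, but the intervals of both overlapped in each. All 31 Thp1-only clusters of at least 300 bp on chromosome IV except 1 overlapped Rrm3, beside 29 of 37 on the other chromosomes. The classes of long clusters hold few members, and the interval of 6 of 9, 35.4 to 87.9%, shows how little they fix the share.

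**Figure D5:**
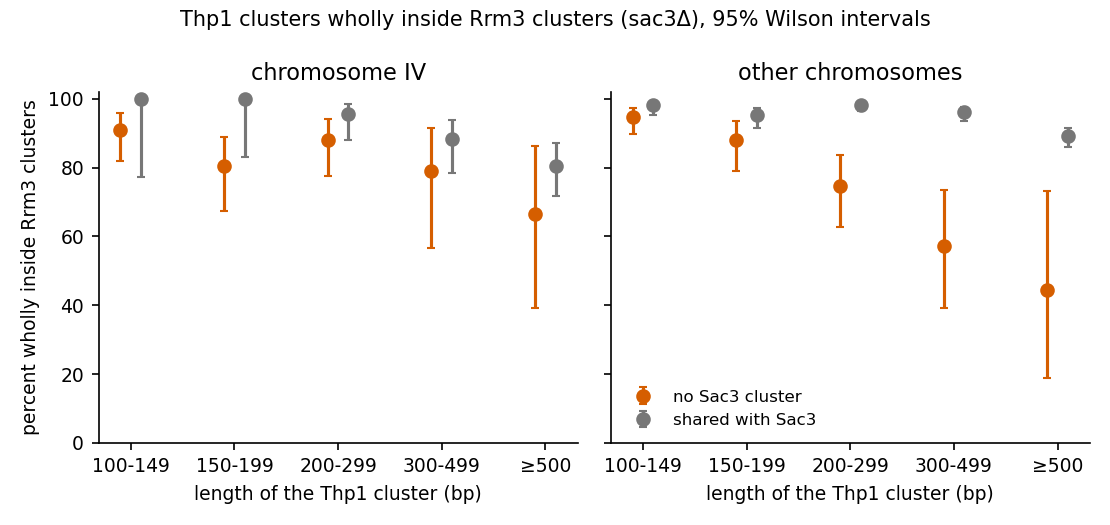
Percent of Thp1 clusters that lay wholly inside Rrm3 clusters of sac3Δ cells (vertical axes) by length of the Thp1 cluster in bp (horizontal axes), on chromosome IV (left) and the other chromosomes (right); points are shares of Thp1-only (orange) and shared (gray) clusters and bars are 95% Wilson intervals. Off chromosome IV the orange points go down from 94.6% to 44.4% while the gray points stay between 89.1 and 98.2%.

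Thp1 clusters without Rrm3 were for the most part Thp1-only. In the whole list 38 Thp1 clusters had no Rrm3 cluster over them, and 33 of these had no Sac3 cluster either (86.8%, interval 72.7 to 94.2%), all 13 on chromosome IV and 20 of 25 elsewhere. Of all Thp1 clusters, 21.4% were Thp1-only, with 43.7% on chromosome IV and 16.2% elsewhere. The 20 Thp1-only clusters without Rrm3 off chromosome IV were spread over 12 chromosomes. They had a median length of 279 bp, and 8 of them reached 300 bp, whereas the 13 on chromosome IV had a median of 186 bp and 1 reached 300 bp. Of the 20, 7 lay within 250 bp of an Rrm3 cluster, and of the 13 on chromosome IV, 2 did. The distance to the nearest one ran from 65 to 899 bp off chromosome IV and from 113 to 2674 bp on it.

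The longest Thp1-only clusters without Rrm3 were, off chromosome IV, those of 975 bp on chromosome III, 653 bp on chromosome XIV and 627 bp on chromosome VII that were given above, followed by 446 bp on chromosome XIII (661638 to 662083) and 445 bp on chromosome VII (4182 to 4626). The one on chromosome III lay 899 bp from Rrm3. On chromosome IV they measured 349 bp (368855 to 369203), 286 bp (357297 to 357582), 280 bp (591718 to 591997), 216 bp (350327 to 350542) and 189 bp (149455 to 149643). By chromosome, every Thp1-only cluster overlapped Rrm3 on chromosomes VI, IX and XV, with 5, 16 and 34 clusters, and the lowest share was on chromosome III, with 5 of 8.

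For comparison, Sac3 clusters without Thp1, which are as short, overlapped Rrm3 more often off chromosome IV. Of the 352, 348 had an Rrm3 cluster (98.9%, interval 97.1 to 99.6%) and 334 lay wholly inside (94.9%, interval 92.1 to 96.7%), beside the 93.8 and 84.6% of Thp1-only clusters. The Rrm3 clusters concerned were also longer, with a median of 1112 bp (938 to 1279 bp) beside 792 bp. In these cells SAC3 was deleted, and Rrm3 in cells with Sac3 was not analysed here. The intervals did not meet, but with 1 list per protein the difference could not be set against a spread between experiments.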

How the data were processed

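ChIP-chip cluster lists were used for Thp1-FLAG, Sac3-FLAG (1 array experiment each) and Rrm3-FLAG in sac3Δ cells (2 repetitions, normalized by the quantile method per the methods). The deposited values are positions in bp (a chromosome with a start and an end), with no signal and no P-value or score. The authors derived them with the Tiling Array Suite from ranges of positive IP/SUP signal with a P-value under 0.01, runs of at least 100 bp and gaps up to 250 bp. The title of the Rrm3 list names sac3Δ, and its samples were taken from there. The aligner and genome build are not given in the sources used here. The series has 6 samples, and 2 of them, thp1Δ cells with Rrm3-FLAG, were left out.

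Members were the Thp1 clusters with 0 bp in common with Sac3. Members and measures were chosen with earlier results of these data known. Distances are gaps in bp between cluster edges, and the span of a chromosome is the largest end position that the 3 lists gave for it. Medians carry 95% order-statistic intervals and shares 95% Wilson intervals. Named clusters were the 5 longest, the 3 nearest and 3 farthest from Sac3, the 3 Thp1 clusters with the least Sac3 contact, and the 5 longest without Rrm3, each for chromosome IV and for the others. Runs were named after their values were seen. Counting was tested on simulated lists. Alternatives changed the minimum length in each list, the overlap, the distance to Sac3 and the chromosome ends. Python 3.11.15, numpy 2.4.6, pandas 2.3.3, scipy 1.17.1 and matplotlib 3.10.9 were used. The number of arrays limits the precision.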

Additional observations from a re-analysis of the deposited data

How the results depend on the processing

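No paired analysis was possible because each protein had a single list, and no repetition could be left out. Of 44 recomputed values, 23 stayed within 1.5 times the reported number of clusters or within the interval of the reported share or median, and 21 moved. With Thp1 clusters of at least 300 bp, there were 31 Thp1-only clusters on chromosome IV and 37 elsewhere, with Rrm3 over 96.8 and 78.4%, median lengths of 461 and 423 bp and, off chromosome IV, a median distance to Sac3 of 1061 bp. With only Sac3 clusters of at least 300 bp, the numbers were 365 and 1098, the Rrm3 shares 96.4 and 97.9%, the lengths 221 and 187 bp and the distances 4969 and 3670.5 bp. With at least 50% of a Thp1 cluster covered by Sac3 needed to call it shared, the lengths were 203 and 167.5 bp and the distances 1414 and 1223 bp. With Rrm3 clusters of at least 300 bp, the Rrm3 shares were 82.7 and 85.5%. The changes in number follow from which clusters are left. The share of Thp1 clusters that were Thp1-only stayed higher on chromosome IV than elsewhere under these 3 choices of members, with 15.7 against 4.40% for long Thp1 clusters, 76.7 against 54.7% for long Sac3 clusters and 52.1 against 19.1% for the 50% rule. No value moved beyond those limits when the outer 20 kb of each chromosome or clusters within 250 bp of Sac3 were excluded.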

Other observations

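At the left end of chromosome VII, 2 Thp1-only clusters (3220 to 3846 and 4182 to 4626) were followed by the Thp1 cluster from 5224 to 5424, which had 33 bp in common with Sac3. The 3 had the same Sac3 cluster of 353 bp as the nearest one, and none had an Rrm3 cluster, with 169, 65 and 693 bp to the closest. Nearer to the end, the Thp1-only cluster from 1995 to 2202 did overlap an Rrm3 cluster, by 54 bp or 26.0% of its length. These positions were singled out after their values were seen.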
